A study of Mus musculus with 27 samples.

Results

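Lung fibroblasts in primary culture, from C57BL/6 mice of wild-type genotype, were compared after the same 35 d of culture, with the ATM inhibitor KU60019 either taken away or kept. The withdrawn group had 3 uM KU60019 for 15 d and was then cultured for 20 d without it, while the continued group had 3 uM KU60019 for all 35 d. Each group holds 3 libraries, titled S10_705, S11_715 and S12_716 (withdrawn) and S16_705, S17_715 and S18_716 (continued), so the comparison uses 6 of the 27 libraries of the series. The vehicle controls are 3 libraries with DMSO removed after 15 d and cultured for 20 d more, and 3 with DMSO for 35 d. Another 3 libraries come from cells harvested at 15 d of KU60019, the age at which the withdrawn group lost it. All of these groups share the strain, the genotype, the serum-containing medium and an atmosphere of 3% O2. Nothing in the labels says whether the shared end number stands for a mouse, a culture or a preparation, so p-values measure the spread between these libraries, which may be technical. Values below are counts per 1000000 reads (CPM), given in the order of those titles, and log2 fold changes are withdrawn minus continued with their standard error (SE). A rise or fall below is a difference between a withdrawn and a continued group, not a change since 15 d.

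ATM is a kinase that is switched on at broken DNA and phosphorylates p53, the checkpoint kinase CHK2 and histone H2AX. KU60019 blocks its catalytic site, so the protein and its mRNA can persist while signalling stops. Senescent fibroblasts leave the cell cycle through CDK inhibitors such as p16 and p21, lose lamin B1 and release cytokines, proteases and growth factor binding proteins. Lung fibroblasts also build the collagen and elastin matrix of the alveolar wall, and part of them take on the contractile filaments of myofibroblasts.

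The withdrawn libraries held 22976382 to 33249336 counted reads and the continued ones 21339940 to 44402601, within the series range of 20659745 to 50859493. The withdrawn library S11_715 stood apart from its group, with a median absolute log2 difference of 0.442 from S10_705 and 0.344 from S12_716 over all genes tested, against 0.228 between those 2 libraries. The continued libraries differed from each other by 0.147 to 0.206, and a withdrawn from a continued library by 0.298 to 0.623. Counts without the withdrawn library S11_715 are therefore given beside the gene groups. Mitochondrially encoded genes took 1.23 to 1.57% of the counts after withdrawal and 5.08 to 6.61% under continued treatment. Genes of the shortest quintile by exon length had a median log2 fold change of 0.16 and those of the longest -0.07, and with that trend removed 7443 genes passed the test described next. Fibroblast identity genes summed to 24080 to 31440 CPM after withdrawal and 19730 to 21150 CPM under continued treatment. In DMSO they summed to 55610 to 63420 CPM after removal and 42930 to 52760 CPM at 35 d. Both KU60019 groups thus expressed these genes, at lower summed levels than DMSO.

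Of 18684 genes tested, 7133 (38.2%) passed an adjusted p of 0.05 between withdrawn and continued cells. After withdrawal 3755 genes (20.1%) were higher and 3378 (18.1%) lower, of which 1487 and 1909 by at least 2-fold (18.2% of genes tested). With the same schedule in DMSO 30 genes (0.161%) passed, 27 higher (0.145%) and 3 lower (0.0161%). The KU60019 contrast differed from the DMSO contrast at 2977 genes (15.9%). The libraries of the 2 KU60019 groups did not overlap at 8917 genes (47.7%), against 22.1% of genes in the DMSO contrast. The split of calls depended on scaling: 52.6% of called genes were higher with TMM scaling, 40.0% with library size alone and 36.6% on log2(TPM + 1), where the median of all genes stood at -0.01, -0.16 and -0.19. The number of calls was 4362 without the withdrawn library S11_715, 4464 without the continued library S16_705 and 4222 when only the 6 libraries were fitted.

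**Figure D1:**
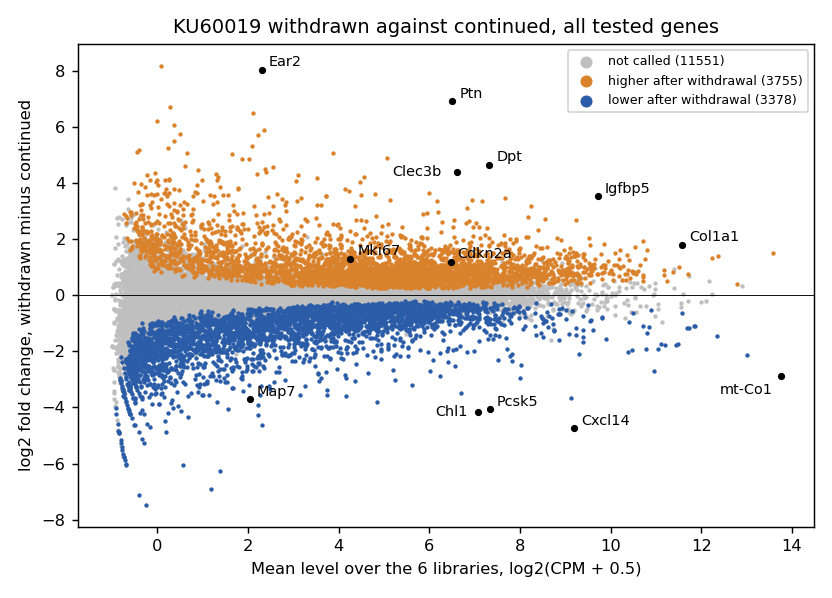
Each point is a gene tested between withdrawn and continued KU60019, with the mean log2 CPM on the x axis and the log2 fold change (withdrawn minus continued) on the y axis, and coloured points passed an adjusted p of 0.05. The 3755 genes above 0 and the 3378 below it lie over the whole range of expression.

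Among the secreted factors higher after withdrawal was Ptn, the heparin-binding growth factor pleiotrophin (chromosome 6, 36714929 to 36810220, minus strand, GRCm38). Ptn was at 40.0, 331 and 165 CPM after withdrawal and 1.06, 2.20 and 1.17 CPM under continued treatment (log2 fold change 6.90 ± 0.59, adjusted p = 1.34e-07). Dpt, dermatopontin, a matrix protein that binds decorin and collagen (chromosome 1, 164796644 to 164824266, plus strand), was at 332, 270.4 and 317 CPM after withdrawal and 15.7, 8.25 and 12.7 CPM under continued treatment (log2 fold change 4.65 ± 0.45, adjusted p = 3.22e-07). In the DMSO libraries Dpt was at 22.1, 22.1 and 30.4 CPM after removal and 21.9, 13.6 and 22.8 CPM at 35 d, and the 2 contrasts differed (log2 difference 4.29 ± 0.57, adjusted p = 7.4e-05). Genes were named for their size only where the groups did not overlap, a condition that Ptn and Dpt met by a wide margin. For Dpt the 3 withdrawn libraries lay close to each other. Without the withdrawn library S11_715, the highest for Ptn, its log2 fold change was 6.10. Clec3b, tetranectin, a plasminogen-binding lectin, was at 64.9, 265 and 231 CPM in the withdrawn libraries against 13.3, 6.41 and 6.83 CPM in the continued ones (log2 fold change 4.39 ± 0.57, adjusted p = 9.68e-06). Ccdc42, a coiled-coil gene known from sperm, was low but even between replicates, at 6.07, 6.57 and 5.65 CPM in the withdrawn libraries against 0.113, 0.223 and 0.328 CPM in the continued ones (log2 fold change 4.86 ± 0.43, adjusted p = 1.61e-07). Ear2, a ribonuclease of eosinophils, had 634 counts over the withdrawn libraries and 3 over the continued ones, a ratio of 281 (exact 95% interval 95.7 to 1367, counting error only), and it has near-identical copies in its family, so the counting of its reads is uncertain.

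Of the 15 gains named for their size at 5 CPM or more, another 10 were highest in the withdrawn library S11_715. Adra2a, the alpha-2A adrenergic receptor, was at 2.42, 71.4 and 8.82 CPM in the withdrawn libraries against 0.450, 1.20 and 0.842 CPM in the continued ones, and Col8a2, a network collagen, at 4.28, 166 and 21.9 CPM in the withdrawn libraries against 2.05, 2.48 and 1.87 CPM in the continued ones. Tril, an accessory protein of toll-like receptor 4, was at 0.196, 14.1 and 1.21 CPM in the withdrawn libraries against 0.158, 0.195 and 0.0936 CPM in the continued ones. Separate groups were a condition for naming these genes, and S10_705 came near to the continued libraries. Without the withdrawn library S11_715 the log2 fold change of Adra2a went from 5.06 to 2.75, that of Col8a2 from 4.90 to 2.60 and that of Tril from 5.03 to 2.10, all 3 still called. The others were Rspo2, a WNT potentiator (5.88 ± 0.91), the adaptor Ldb2 (5.70 ± 0.95), the transcription factor Foxd1 (4.41 ± 0.91), the troponin Tnnt2 (4.32 ± 0.78), Tspan11 (4.23 ± 0.63), the water channel Aqp5 (4.19 ± 0.80) and Sec1 (4.48 ± 0.87), whose exons overlap those of Ntn5. All of these passed the test.

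Among genes at 5 CPM or more in the continued cells and named for the size of their fall was Cxcl14, a chemokine made by fibroblasts (chromosome 13, 56288643 to 56296551, minus strand). Cxcl14 was at 834, 986 and 1541 CPM under continued treatment and 83.7, 12.3 and 29 CPM after withdrawal (log2 fold change -4.75 ± 0.55, adjusted p = 2.77e-06). The lowest continued library, at 834 CPM, stood far above the highest withdrawn one, at 83.7 CPM. Pcsk5, a protease that activates secreted precursors (chromosome 19, 17432319 to 17837632, minus strand), was at 352, 218 and 342 CPM under continued treatment and 25.6, 16.5 and 12.3 CPM after withdrawal (log2 fold change -4.06 ± 0.36, adjusted p = 1.65e-07). Chl1, an adhesion molecule of nerve cells, was at 344, 183 and 239 CPM under continued treatment and 29.5, 3.65 and 8.96 CPM after withdrawal (log2 fold change -4.17 ± 0.59, adjusted p = 2.55e-05). Crabp2, which carries retinoic acid to the nucleus, was at 22.4, 44.2 and 30.2 CPM under continued treatment and 3.46, 1.85 and 2.57 CPM after withdrawal (log2 fold change -3.61 ± 0.37, adjusted p = 6.24e-07). Tmem59l fell by 3.82 on the log2 scale, from 57.3, 45.5 and 55.5 CPM to 5.97, 3.16 and 1.91 CPM, and the microtubule binder Map7 by 3.71, from 7.79, 5.74 and 6.60 CPM to 0.685, 0.533 and 0.280 CPM. In all 6 genes the withdrawn library S10_705 was the highest of its group. Groups that did not overlap were a condition for naming these genes.

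Further falls of this size were in Slfn5 (-4.62 ± 0.97), the oxidised lipoprotein receptor Olr1 (-3.56 ± 0.47), Shisa2 (-3.56 ± 0.49), the secreted neuropeptide precursor Vgf (-3.55 ± 0.34), the iron-binding Lcn2 (-3.48 ± 0.83), Scel (-3.40 ± 0.47), the WNT antagonist Sfrp4 (-3.38 ± 0.60) and the immunoglobulin heavy chain gene Ighm (-3.35 ± 0.39). Lcn2 was at 242, 116 and 208 CPM under continued treatment and 41, 5.75 and 3.64 CPM after withdrawal. Without the withdrawn library S10_705 the falls deepened, to -5.32 for Lcn2, -6.01 for Slfn5 and -5.77 for Cxcl14.

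Of the genes that mark senescence and ATM, Mki67, Cdkn2a and Lmnb1 were higher after withdrawal and Il6 and Atm were lower. Mki67, the proliferation antigen, was at 23.2, 29.4 and 26.5 CPM after withdrawal and 8.99, 13.7 and 9.50 CPM under continued treatment (log2 fold change 1.29 ± 0.24, adjusted p = 0.000413). Lmnb1, which encodes lamin B1, was at 13.3, 8.78 and 12.9 CPM after withdrawal and 6.64, 6.33 and 5.38 CPM under continued treatment (log2 fold change 0.93 ± 0.18, adjusted p = 0.000562). Cdkn2a, whose 2 transcripts encode p16 and p19ARF and are counted together, was at 112, 96.3 and 159 CPM after withdrawal and 54.9, 54.6 and 51.2 CPM under continued treatment (log2 fold change 1.19 ± 0.31, adjusted p = 0.00603). None of these groups overlapped, and all 3 genes differed from their DMSO contrast (adjusted p = 0.0377, 0.0135 and 0.0498), with Mki67 and Cdkn2a near the threshold and lost there when single libraries were left out. With the replicate block the difference of Cdkn2a did not pass the test (adjusted p = 0.0544). In the DMSO libraries Cdkn2a was at 40.4, 34.4 and 41.8 CPM after removal and 50.7, 35.4 and 38.6 CPM at 35 d, and at 15 d of KU60019 at 29.7, 16.4 and 26.8 CPM. Lmnb1 and Cdkn2a did not pass the test on either TPM scale.

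Cdkn1a, which encodes p21, was at 283, 493 and 339.7 CPM after withdrawal and 378, 401 and 427 CPM under continued treatment, with overlapping groups (log2 fold change -0.11 ± 0.18, adjusted p = 0.637). Mdm2, the p53 ligase and target, was at 85.6, 104 and 96.7 and 107, 106 and 98.1 CPM (-0.12 ± 0.13, adjusted p = 0.468). Il6, the interleukin of the secretory phenotype, was at 92.5, 11.7 and 30.5 and 257, 89.4 and 133 CPM, where the withdrawn library S10_705 overlapped the continued ones (log2 fold change -1.83 ± 0.64, adjusted p = 0.0282). Atm itself was at 1.47, 1.07 and 0.560 CPM after withdrawal and 3.56, 2.20 and 2.01 CPM under continued treatment (log2 fold change -1.31 ± 0.45, adjusted p = 0.027), and its mRNA is no check of an inhibitor that acts on the protein. The calls of Il6 and Atm were lost without the withdrawn library S11_715 (adjusted p = 0.124 and 0.0751), the withdrawn library S12_716 (0.0977 and 0.112) or the continued library S16_705 (0.154 and 0.137), and that of Atm on both TPM scales.

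**Figure D2:**
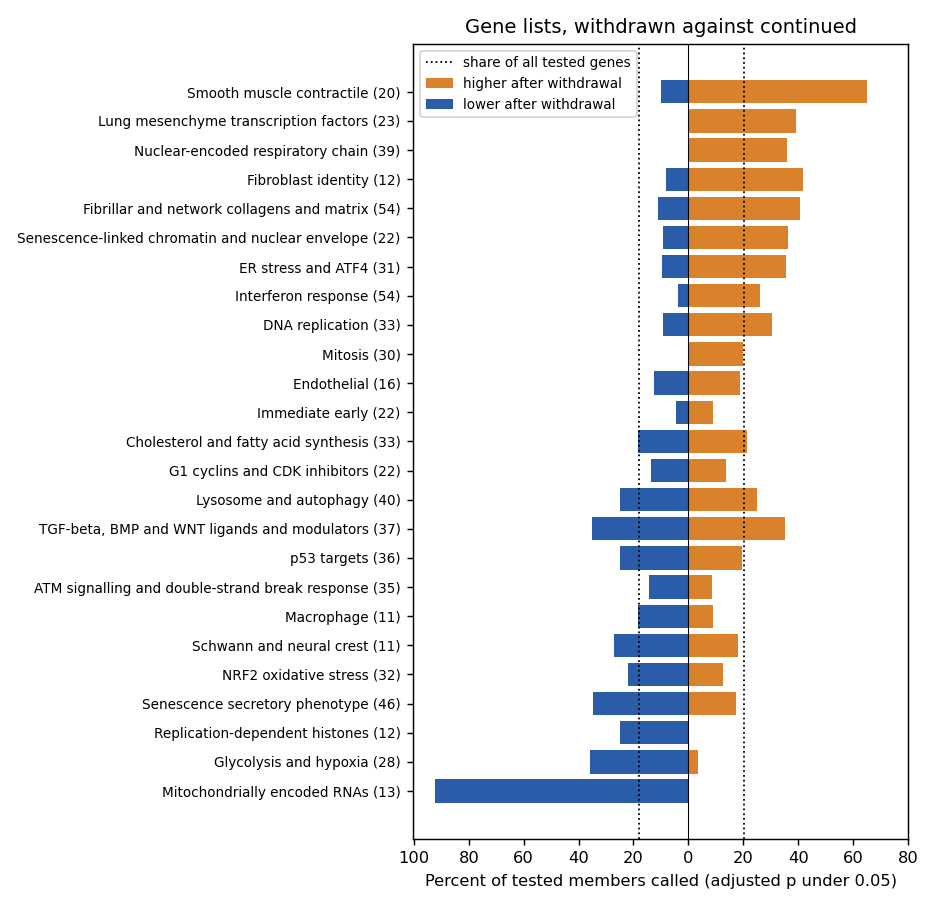
Bars give the percent of tested members of each gene list that were higher or lower after withdrawal than under continued KU60019 at an adjusted p of 0.05, for lists with at least 10 tested members, with the share over all genes tested (20.1% higher, 18.1% lower) marked. Contractile genes stood at 65.0% higher and mitochondrially encoded RNAs at 92.3% lower.

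Smooth muscle contractile genes, the filaments by which myofibroblasts pull on matrix, were mostly higher after withdrawal. Of 20 tested members, 13 were higher and 2 lower, with a median log2 fold change of 1.22 against -0.01 over all genes. The list summed to 10360 to 14370 CPM after withdrawal and 5299 to 7097 CPM under continued treatment. At 15 d of KU60019 it summed to 15440 to 18730 CPM, so both groups lay below the level at the start of withdrawal. Acta2, alpha smooth muscle actin, was at 3269.9, 2522 and 2292 CPM after withdrawal and 584, 1005 and 1056 CPM under continued treatment (log2 fold change 1.61 ± 0.26, adjusted p = 9.82e-05). The calponin Cnn1 was at 265, 205 and 159 CPM after withdrawal and 21.5, 46.8 and 49.4 CPM under continued treatment (log2 fold change 2.42 ± 0.38, adjusted p = 8.16e-05), and the intermediate filament desmin, Des, at 231, 238 and 218 CPM after withdrawal and 21.1, 60.9 and 46.5 CPM under continued treatment (log2 fold change 2.42 ± 0.45, adjusted p = 0.000383). No withdrawn library of these 3 genes came near a continued one, and the continued library S16_705 was the lowest in each. Tpm2, beta tropomyosin, was at 1304, 1757 and 1289.7 CPM in the withdrawn libraries against 305, 425 and 501 CPM in the continued ones, and the myosin light chains Myl9 and Myl6 rose by 1.41 ± 0.25 and 1.5 ± 0.22 on the log2 scale. Actg2 (2.15 ± 0.38), the integrin Itga8 (1.98 ± 0.36), Lmod1 (1.38 ± 0.24) and Smtn (0.99 ± 0.20) rose as well. Synpo2, a partner of alpha-actinin, went the other way, at 8.26, 6.16 and 7.80 CPM in the withdrawn libraries against 11.7, 13.1 and 14.8 CPM in the continued ones (log2 fold change -0.83 ± 0.18, adjusted p = 0.0017). The counts were 14 higher and 1 lower without the withdrawn library S11_715. Against time-matched DMSO, 10 members were lower in the withdrawn cells (24% of all genes tested) and 12 in the continued cells (8.4% of all genes tested). Acta2 stood at 3789.9, 4352 and 3509 CPM in the DMSO libraries after removal and 2706, 2420.4 and 2066 CPM at 35 d. The list summed to 15850 to 18410 CPM after DMSO removal and 10170 to 12130 CPM at 35 d of DMSO. Its median log2 fold change was 0.65 in the DMSO contrast, where no member was called, and 0.32 in the difference from that contrast. In the difference 2 members were higher and 1 lower, against 7.95% and 7.99% of all genes tested.

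Promoter sequences are shown for the members called in either direction whose 250 bases before the RefSeq start hold a CArG box, the site of serum response factor, a known regulator of contractile genes. The box was searched on both strands as CC, 6 letters of A or T, then GG, and is in capitals (GRCm38.p6, 5′ to 3′ on the gene's strand).
Myl9, chr2:156775214-156775463, plus strand: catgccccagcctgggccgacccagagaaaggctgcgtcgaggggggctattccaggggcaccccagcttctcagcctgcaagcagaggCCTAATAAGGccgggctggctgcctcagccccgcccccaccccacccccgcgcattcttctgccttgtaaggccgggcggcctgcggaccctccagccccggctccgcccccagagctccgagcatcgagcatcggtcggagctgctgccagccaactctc
Myl6, chr10:128493010-128493259, minus strand: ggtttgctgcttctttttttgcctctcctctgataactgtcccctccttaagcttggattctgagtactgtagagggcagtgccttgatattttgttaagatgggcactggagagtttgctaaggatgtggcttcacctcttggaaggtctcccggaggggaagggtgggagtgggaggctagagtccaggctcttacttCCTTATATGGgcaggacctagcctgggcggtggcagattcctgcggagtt
Cnn2, chr10:79988350-79988599, plus strand: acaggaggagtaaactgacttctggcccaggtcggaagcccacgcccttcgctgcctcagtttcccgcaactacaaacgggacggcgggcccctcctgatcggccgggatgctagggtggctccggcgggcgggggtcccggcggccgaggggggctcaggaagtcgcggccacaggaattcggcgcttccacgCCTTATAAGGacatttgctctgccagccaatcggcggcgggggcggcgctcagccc
Vcl, chr14:20929148-20929397, plus strand: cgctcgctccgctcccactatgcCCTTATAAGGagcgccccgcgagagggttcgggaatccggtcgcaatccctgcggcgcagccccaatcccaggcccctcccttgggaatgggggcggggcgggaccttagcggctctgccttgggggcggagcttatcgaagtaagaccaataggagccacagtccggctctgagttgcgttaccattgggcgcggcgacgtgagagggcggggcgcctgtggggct
The box starts 161 bases before the gene start in Myl9, 50 in Myl6, 56 in Cnn2 and 227 in Vcl. Of 17 contractile members with a promoter in the RefSeq table, 6 hold the box, against 1.62% of all 27025 genes with a promoter and 1.49% of the 11766 tested ones. Among members called higher 3 of 11 hold it, and among those called lower 1 of 2. Acta1 and Actc1, which were not called, hold the box as well. A match is a description of the letters and not of binding. Cnn2, a calponin, was at 839, 618 and 659 CPM in the withdrawn libraries against 506, 520.3 and 549.7 CPM in the continued ones (log2 fold change 0.42 ± 0.12, adjusted p = 0.0103). Vcl, vinculin, which links actin to adhesion sites, was at 10.3, 5.42 and 2.75 CPM in the withdrawn and 46, 19.2 and 12.3 CPM in the continued libraries (log2 fold change -2.06 ± 0.80, adjusted p = 0.0454). The call of Cnn2 was lost without the withdrawn library S10_705 (adjusted p = 0.0673), and that of Vcl without either the withdrawn library S11_715 or S12_716 or the continued library S16_705 or S17_715 (adjusted p from 0.0563 to 0.239). With the replicate number as a block the call of Vcl was lost (adjusted p = 0.0514), and the list had 14 higher and 1 lower.

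Matrix genes moved in both directions. Of 54 tested, 22 were higher and 6 lower after withdrawal, with a median log2 fold change of 0.36. These are 40.7% and 11.1%, against 20.1% and 18.1% of all genes tested. In the DMSO contrast no member was called and the median was 0.24. In the difference from the DMSO contrast the median was 0.13. There 9 members were higher and 7 lower, against 7.95% and 7.99% of all genes tested. The fibrillar collagen Col1a1 was at 4284, 5003 and 4989 CPM after withdrawal and 1063, 1746 and 1274 CPM under continued treatment (log2 fold change 1.81 ± 0.25, adjusted p = 1.98e-05), and its partner Col1a2 at 8035, 8333 and 6609 CPM after withdrawal and 2815, 3042 and 2777 CPM under continued treatment (log2 fold change 1.41 ± 0.16, adjusted p = 2.2e-06). The 3 chains of collagen VI, a microfibrillar collagen, all rose: Col6a3 by 2.57 ± 0.38, Col6a2 by 1.84 ± 0.27 and Col6a1 by 1.11 ± 0.23 on the log2 scale. For the elastic fibre, Eln, the elastin gene, was at 118, 501 and 354 CPM after withdrawal and 63.4, 76.7 and 80.4 CPM under continued treatment (log2 fold change 2.14 ± 0.47, adjusted p = 0.00167), and Fbln5 (1.42 ± 0.27) and Fbn2 (2.72 ± 0.49) were higher too. The withdrawn library S11_715 was the highest for Eln and collagen VI, and all groups were separate. Perlecan, Hspg2 (1.96 ± 0.36), fibromodulin, Fmod (2.06 ± 0.36), and tenascin X, Tnxb (1.54 ± 0.33), also rose.

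The small proteoglycan decorin, Dcn, went the other way, at 890.0, 243 and 451 CPM after withdrawal and 2703, 1704 and 2032 CPM under continued treatment (log2 fold change -2.02 ± 0.43, adjusted p = 0.00119). Col12a1, a collagen that sits on the surface of fibrils, was at 415, 341 and 209 CPM after withdrawal and 1310.3, 851 and 894 CPM under continued treatment (log2 fold change -1.66 ± 0.30, adjusted p = 0.000309). Prelp (-1.33 ± 0.28) and the crosslinking enzyme Loxl2 (-0.84 ± 0.20) were lower as well. In the matrix list 5 members were higher and 25 lower in the withdrawn cells against DMSO withdrawn, and 3 higher and 21 lower in the continued cells against DMSO at 35 d. The shares of all genes tested were 24.7% higher and 24% lower for the withdrawn cells, and 9.7% and 8.4% for the continued ones. The counts between the KU60019 groups were 19 higher and 5 lower without the withdrawn library S11_715 and 12 higher and 7 lower on log2(TPM + 1).

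**Figure D3:**
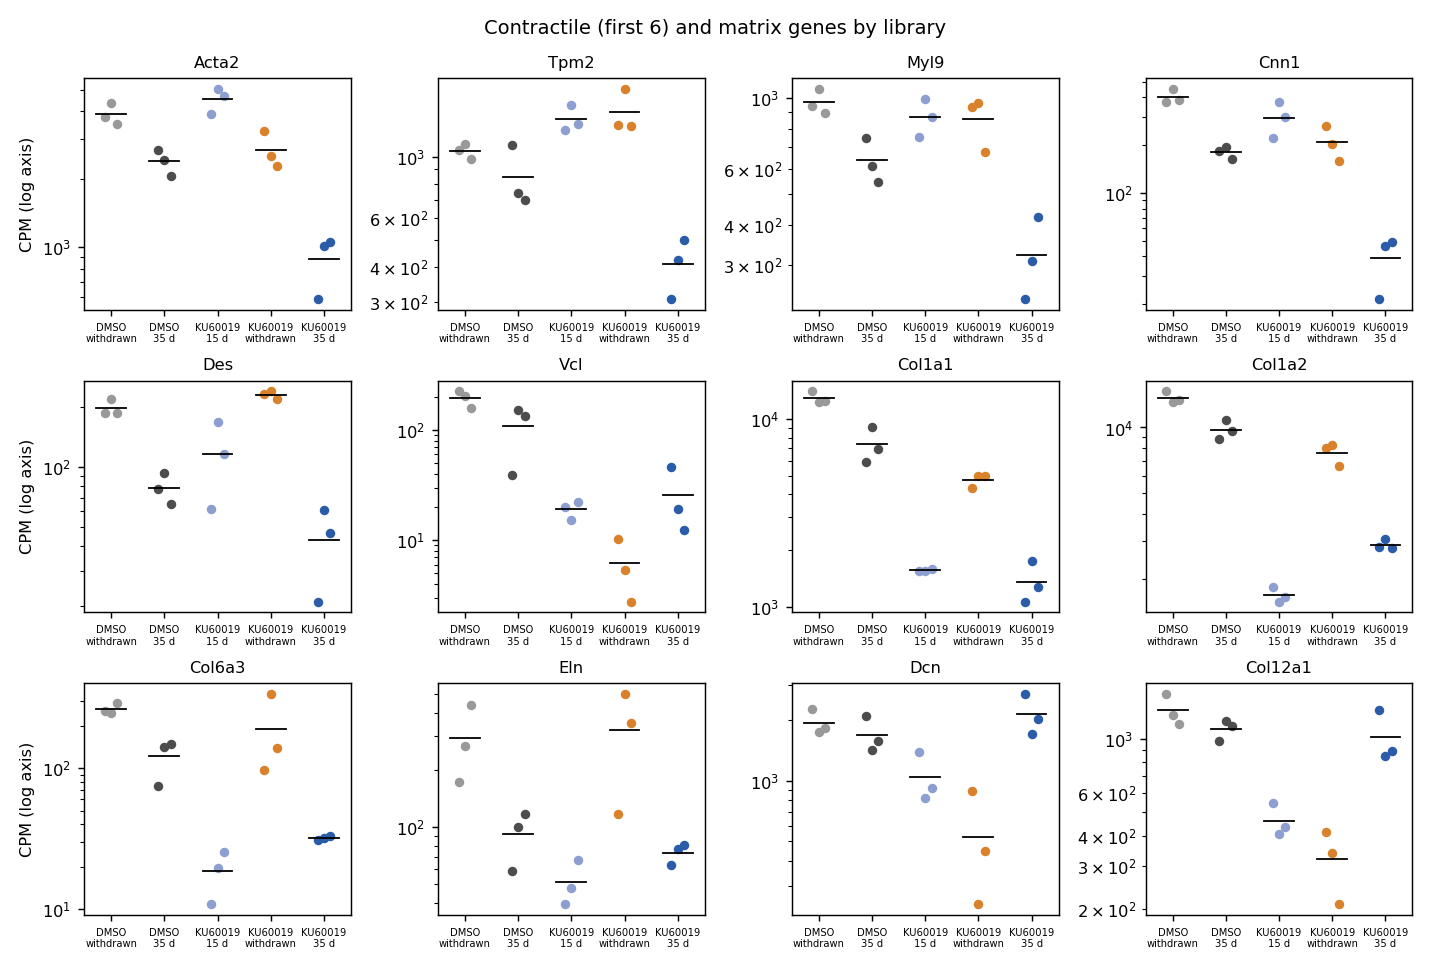
CPM (log axes) of 6 contractile and 6 matrix genes in each library of the DMSO withdrawn, DMSO 35 d, KU60019 15 d, KU60019 withdrawn and KU60019 35 d groups, with bars at group means. Acta2, Tpm2, Myl9, Cnn1, Des, Col1a1, Col1a2, Col6a3 and Eln are higher, and Vcl, Dcn and Col12a1 lower, in the 3 withdrawn than in the 3 continued KU60019 libraries, with the nearest values of the groups for Vcl at 10.3 and 12.3 CPM.

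Ligands and modulators of TGF-beta, BMP and WNT signalling, the pathways that set the myofibroblast and matrix programmes, moved in both directions. Of 37 tested, 13 were higher and 13 lower. Among ligands, Tgfb1 (-0.93 ± 0.13), Tgfb2 (-1.52 ± 0.20), the activin subunit Inhba (-2.08 ± 0.46) and Bmp6 (-3.04 ± 0.39) were lower, and Tgfb3 (0.84 ± 0.17) was higher. Bmp6 was at 4.57, 1.19 and 1.54 CPM in the withdrawn libraries against 21.2, 23.7 and 16.4 CPM in the continued ones, and its exons overlap those of Txndc5. The receptor Tgfbr1 was lower (-1.21 ± 0.23), while the latent binding proteins Ltbp1 (0.95 ± 0.18) and Ltbp2 (1.15 ± 0.23), which hold TGF-beta in the matrix, were higher. Id1, an inhibitor of helix-loop-helix factors and a target of BMP signalling, was at 194, 265 and 149 CPM after withdrawal and 34.9, 30.0 and 31.7 CPM under continued treatment (log2 fold change 2.65 ± 0.28, adjusted p = 7.61e-07). In the DMSO libraries Id1 was at 60.2, 63.9 and 45.3 and 86.2, 51 and 106 CPM, and at 15 d of KU60019 at 38.3, 38.1 and 28.5 CPM. Follistatin, Fst, an activin antagonist, was higher (1.45 ± 0.22), and the WNT antagonists Sfrp1 (-1.12 ± 0.24) and Frzb (-1.60 ± 0.20) were lower. The counts were 7 higher and 10 lower without the withdrawn library S11_715, which lost Dkk2, Wnt5a, Tgfbi and Chrdl1 among others, and 6 higher and 11 lower on log2(TPM + 1).

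Transcription factors of the lung mesenchyme were higher after withdrawal in 9 of 23 and lower in none that passed the test. Twist1, which drives mesenchymal fate, was at 34.9, 96 and 44.3 CPM after withdrawal and 9.37, 14.4 and 15.4 CPM under continued treatment (log2 fold change 2.16 ± 0.33, adjusted p = 5.56e-05), and Twist2 rose by 2.06 ± 0.27, although its exons overlap a predicted gene. Meox2, a homeobox factor, was at 2.22, 24.9 and 8.40 CPM in the withdrawn libraries against 1.76, 1.25 and 1.40 CPM in the continued ones (log2 fold change 3.00 ± 0.54, adjusted p = 0.000333). Snai2, known from the epithelial to mesenchymal switch, was at 34.9, 50.5 and 37.2 CPM after withdrawal and 13.8, 15.3 and 12.9 CPM under continued treatment (log2 fold change 1.54 ± 0.16, adjusted p = 5.22e-07), and Foxp1 at 143, 242 and 135 CPM after withdrawal and 59.2, 60.4 and 59.8 CPM under continued treatment (log2 fold change 1.53 ± 0.29, adjusted p = 0.000456). For Meox2 and Twist1 the withdrawn library S11_715 was the highest, whereas Snai2 differed little between the 3. The counts were 9 and 0 without that library, and 7 higher and 1 lower on log2(TPM + 1).

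Genes of the endoplasmic reticulum (ER) and of ATF4, which serve folding of secreted proteins and amino acid supply, were higher in 11 and lower in 3 of 31 tested. The disulphide isomerase Pdia6 was at 807, 609.9 and 829 CPM after withdrawal and 269, 316 and 269 CPM under continued treatment (log2 fold change 1.40 ± 0.14, adjusted p = 6.96e-07). Pdia3 was at 2127, 2265 and 2114 CPM after withdrawal and 975, 1070.1 and 1059.5 CPM under continued treatment (log2 fold change 1.07 ± 0.14, adjusted p = 8.16e-06), and the chaperone Hsp90b1 at 1668, 1353 and 1615 CPM after withdrawal and 694, 841 and 782 CPM under continued treatment (log2 fold change 1.00 ± 0.12, adjusted p = 4.01e-06); both share exon bases with a neighbour. The groups were well apart for all 3 genes. Creld2 (1.10 ± 0.16), the factor Atf4 (0.90 ± 0.17) and the serine synthesis enzyme Phgdh (1.08 ± 0.20) also rose. In the difference from the DMSO contrast 8 members were higher and 1 lower, against 7.95% and 7.99% of all genes tested. The counts were 12 and 1 without the withdrawn library S11_715 and 6 and 4 on log2(TPM + 1).

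RNAs encoded by the mitochondrial genome had the highest share of falls among the gene lists. Of 13 tested, 12 were lower after withdrawal and none higher, with a median log2 fold change of -1.74. mt-Co1, a catalytic subunit of cytochrome oxidase, was at 4205, 2269.7 and 3379 CPM after withdrawal and 25763, 27386 and 19944 CPM under continued treatment (log2 fold change -2.89 ± 0.27, adjusted p = 2.36e-07). mt-Cytb, cytochrome b, was at 1439.8, 1025 and 1511 CPM after withdrawal and 4532, 4616 and 4159 CPM under continued treatment (log2 fold change -1.74 ± 0.20, adjusted p = 2.65e-06), and mt-Nd5, of complex I, at 371, 816 and 401 CPM after withdrawal and 2092, 4421 and 3751 CPM under continued treatment (log2 fold change -2.69 ± 0.54, adjusted p = 0.000755). At 15 d of KU60019 mt-Co1 was at 7671, 6719 and 7543 CPM, and in DMSO at 6382, 7062 and 7939 CPM after removal and 5646, 6881 and 6121 CPM at 35 d. The continued group thus stood above the withdrawn, the 15 d and both DMSO groups for mt-Co1. Against time-matched DMSO, 11 members were higher in the continued cells (9.7% of all genes tested), and in the withdrawn cells 3 were higher (24.7% of all genes tested) and 1 lower. Nuclear pseudogene copies of mitochondrial sequence held 0.712 to 0.93% of the counts after withdrawal and 2.68 to 3.39% under continued treatment, so values of single mitochondrial genes are uncertain. Together with the genes they came to 1.95 to 2.5% and 7.81 to 10.0%. The count of lower members was 11 without the withdrawn library S11_715 and 9 without the continued library S16_705.

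Nuclear genes of the respiratory chain were higher after withdrawal in 14 of 39 and lower in none that passed the test. Cox4i1, a nuclear subunit of cytochrome oxidase, was at 528, 883 and 716.2 CPM after withdrawal and 318, 351 and 423 CPM under continued treatment (log2 fold change 0.96 ± 0.26, adjusted p = 0.00639), though it shares exon bases with Emc8. Ndufs8, an iron-sulphur subunit of complex I, was at 62.6, 91.5 and 79.7 CPM after withdrawal and 28.4, 34.6 and 37.9 CPM under continued treatment (log2 fold change 1.21 ± 0.20, adjusted p = 0.000119), and Atp5o, of the ATP synthase, at 194, 232 and 245 CPM after withdrawal and 103, 122 and 131 CPM under continued treatment (log2 fold change 0.92 ± 0.18, adjusted p = 0.000642). These 3 genes had separate groups. Against time-matched DMSO, 28 members were higher and 1 lower in the withdrawn cells, and 3 higher and none lower in the continued ones. Over all genes tested, 24.7% were higher and 24% lower in the withdrawn cells, and 9.7% and 8.4% in the continued ones. The count was 4 higher without the withdrawn library S11_715 and 4 without the continued library S16_705.

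**Figure D4:**
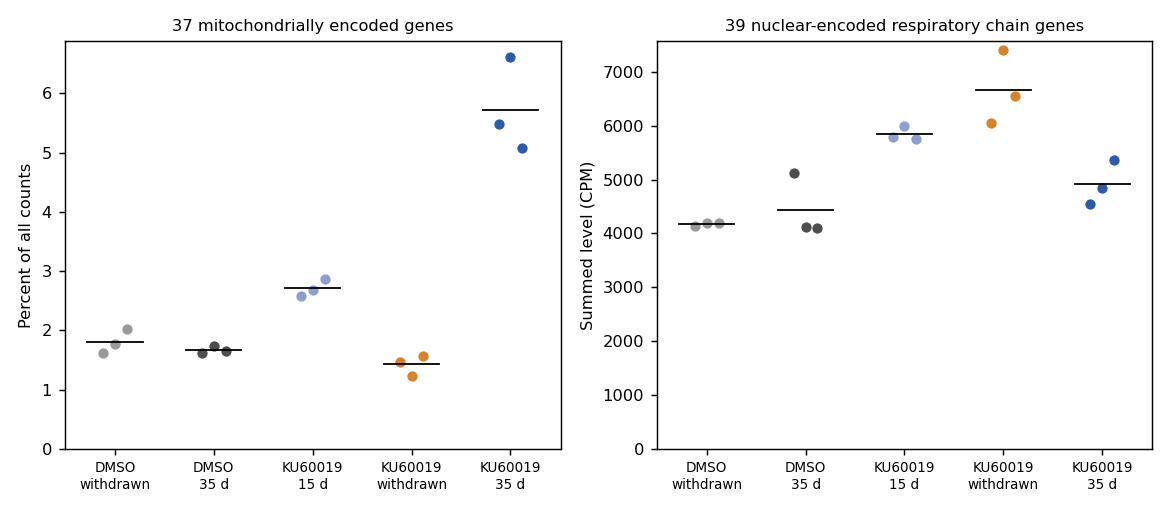
Percent of counts from the 37 mitochondrial genes and summed CPM of the 39 nuclear respiratory chain genes in each library of 5 groups, with bars at group means. The 3 continued KU60019 libraries, at 5.08 to 6.61% of counts, lie above all libraries of the other 4 groups.

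Genes of glycolysis and of the hypoxia response were lower in 10 and higher in 1 of 28 tested. These are 35.7% and 3.57%, against 18.1% and 20.1% of all genes tested. The list summed to 11510 to 14130 CPM after withdrawal and 13070 to 13970 CPM under continued treatment, so the groups overlapped in the sum. Vegfa, the vascular growth factor and a target of hypoxia-inducible factor, was at 279, 129 and 163 CPM after withdrawal and 511, 537 and 549 CPM under continued treatment (log2 fold change -1.48 ± 0.25, adjusted p = 0.00014). Car9, a carbonic anhydrase that responds to low oxygen, was at 10.4, 3.61 and 2.75 CPM after withdrawal and 22.4, 31.1 and 26.5 CPM under continued treatment (log2 fold change -2.24 ± 0.34, adjusted p = 5.42e-05). Bnip3, a mitophagy receptor, was at 97.5, 29.8 and 60.6 CPM after withdrawal and 148, 151 and 149 CPM under continued treatment (log2 fold change -1.25 ± 0.32, adjusted p = 0.00532), and Ndrg1 at 86.6, 98.9 and 76.4 CPM after withdrawal and 232, 199 and 217 CPM under continued treatment (log2 fold change -1.30 ± 0.13, adjusted p = 5.04e-07). The withdrawn libraries of all 4 genes lay wholly below the continued ones. In DMSO Vegfa was at 667, 877 and 679.9 CPM after removal and 462, 728 and 588 CPM at 35 d. The glycolytic enzymes Aldoc (-0.74 ± 0.16) and Pgam1 (-0.47 ± 0.11) fell. In the difference from the DMSO contrast 6 members were lower (7.99% of all genes tested) and none higher. The counts were 8 lower and 1 higher without the withdrawn library S11_715.

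Targets of NRF2, the factor that answers oxidants, were lower in 7 and higher in 4 of 32. These are 21.9% and 12.5%, against 18.1% and 20.1% of all genes tested. The median log2 fold change of the list was -0.12, and -0.18 in the DMSO contrast. Hmox1, which degrades haem, was at 409, 259.9 and 310.2 CPM after withdrawal and 874, 932 and 810.1 CPM under continued treatment (log2 fold change -1.42 ± 0.21, adjusted p = 4.3e-05). Gclc, the catalytic subunit for glutathione synthesis, was at 14.7, 5.05 and 10.8 CPM after withdrawal and 30.7, 30.7 and 26.2 CPM under continued treatment (log2 fold change -1.52 ± 0.34, adjusted p = 0.00174), and the glutathione transferase Gsta3 at 1.5, 0.534 and 1.03 CPM after withdrawal and 6.13, 6.30 and 7.58 CPM under continued treatment (log2 fold change -2.69 ± 0.37, adjusted p = 2.03e-05). Gpx1, glutathione peroxidase, went up, at 286, 875 and 439 CPM in the withdrawn libraries against 135, 184 and 174 CPM in the continued ones (log2 fold change 1.70 ± 0.34, adjusted p = 0.000707). The groups were separate for all 4 genes, and S11_715 held the extreme withdrawn value for Gclc, Gsta3, Hmox1 and Gpx1. The counts were 7 lower and 1 higher without that library, and 9 lower and 2 higher on log2(TPM + 1).

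Lysosome and autophagy genes were higher in 10 and lower in 10 of 40 (25% each, against 20.1% and 18.1% of all genes tested). Among hydrolases and their partners, progranulin, Grn, was at 549, 1136 and 884 CPM after withdrawal and 273, 312 and 296 CPM under continued treatment (log2 fold change 1.54 ± 0.24, adjusted p = 7.47e-05), with exon bases shared with Fam171a2. Cathepsin K, Ctsk (0.90 ± 0.18), Man2b1 (0.83 ± 0.13) and Glb1 (0.59 ± 0.16), whose enzyme is read as the beta-galactosidase of senescent cells, also rose. Tfeb, the master factor of lysosome genes, was at 16.5, 35.3 and 21.9 CPM in the withdrawn libraries against 9.37, 8.06 and 11.2 CPM in the continued ones (log2 fold change 1.37 ± 0.27, adjusted p = 0.000781). Cathepsin H, Ctsh, was lower, at 29, 20.1 and 21.5 CPM in the withdrawn libraries against 85.7, 67.7 and 66.5 CPM in the continued ones (log2 fold change -1.64 ± 0.21, adjusted p = 8.3e-06), as were the cholesterol transporter Npc1 (-1.06 ± 0.24), the proton pump subunit Atp6v1h (-0.79 ± 0.17), the sialidase Neu1 (-0.68 ± 0.12) and the autophagy adaptor Sqstm1 (-0.58 ± 0.14). Glb1 was at 139, 172 and 145 CPM after withdrawal and 103, 105 and 94 CPM under continued treatment. The counts were 8 higher and 9 lower without the withdrawn library S11_715.

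Genes of cholesterol and fatty acid synthesis were higher in 7 and lower in 6 of 33 (21.2% and 18.2%), shares close to those over all genes tested (20.1% and 18.1%). Elovl6, a fatty acid elongase, was at 16.8, 30.1 and 27.4 CPM after withdrawal and 8.60, 7.25 and 6.04 CPM under continued treatment (log2 fold change 1.75 ± 0.18, adjusted p = 5.22e-07), and Cyp51, of the sterol pathway, at 79.6, 85.5 and 80.4 CPM after withdrawal and 43.9, 45.8 and 47.5 CPM under continued treatment (log2 fold change 0.84 ± 0.14, adjusted p = 0.000103). The desaturases Scd2 (-0.80 ± 0.16) and Fads1 (-0.80 ± 0.20) were lower. The counts were 4 and 3 without the withdrawn library S11_715 and 4 and 2 without the continued library S16_705.

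Of 30 mitosis genes 6 were higher, namely Mki67, Cdc20, Mybl2, Ccnb2, Birc5 and Nusap1, and none lower. That share of 20% higher is close to the 20.1% over all genes tested. Summed over the list, the withdrawn libraries came to 298.1, 208.1 and 285.8 CPM and the continued ones to 200.7, 257.6 and 191 CPM, so the groups overlapped. Cdc20, an activator of the anaphase-promoting complex that shares exon bases with Elovl1, was at 8.65, 10.0 and 11.5 CPM after withdrawal and 5.47, 6.05 and 4.68 CPM under continued treatment (log2 fold change 0.89 ± 0.21, adjusted p = 0.00245). The mitosis count was 5 without the withdrawn library S11_715, 2 without the continued library S16_705, 2 with library size alone and 1 on log2(TPM + 1), where Mki67 alone passed.

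Of 33 DNA replication genes 10 were higher and 3 lower. Mcm6, of the replicative helicase, was at 26.3, 34.6 and 31.8 CPM after withdrawal and 15.6, 15.6 and 15.6 CPM under continued treatment (log2 fold change 0.98 ± 0.13, adjusted p = 8.34e-06), and the ligase Lig1, which shares exon bases with Zswim9, at 21, 31.1 and 26 CPM after withdrawal and 10.5, 13.3 and 12.4 CPM under continued treatment (log2 fold change 1.11 ± 0.19, adjusted p = 0.0002). The thymidine kinase Tk1 was at 11.4, 7.88 and 13.2 CPM after withdrawal and 3.58, 5.52 and 4.54 CPM under continued treatment (log2 fold change 1.25 ± 0.21, adjusted p = 0.000181), and it shares exon bases with Afmid. No groups overlapped for these genes. The counts were 8 and 1 without the withdrawn library S11_715, 6 and 1 without the continued library S16_705 and 5 and 1 on log2(TPM + 1).

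Among G1 regulators 3 of 22 were higher and 3 lower (13.6% each, below the shares over all genes tested), with 5 higher and 2 lower without the withdrawn library S11_715. The CDK inhibitors Cdkn1c (1.41 ± 0.29), Cdkn2a (1.19 ± 0.31) and Cdkn2b (0.64 ± 0.16) rose. The retinoblastoma gene Rb1 was at 16.1, 15.8 and 16.6 CPM after withdrawal and 26.2, 24.4 and 21.2 CPM under continued treatment (log2 fold change -0.57 ± 0.12, adjusted p = 0.00106), and its relative Rbl2 at 11.1, 9.56 and 10.3 CPM after withdrawal and 26.8, 20.1 and 19.7 CPM under continued treatment (log2 fold change -1.11 ± 0.28, adjusted p = 0.00431), both lower. The other fall was in Ccnd1, cyclin D1, whose call was lost with the replicate block. In the list of senescence-linked chromatin and envelope genes 8 of 22 were higher and 2 lower. Hmga2, a chromatin architect, was at 33.5, 39 and 34.8 CPM after withdrawal and 10.5, 19.2 and 12.6 CPM under continued treatment (log2 fold change 1.34 ± 0.30, adjusted p = 0.00198), lamin A, Lmna, at 350.2, 812 and 502 CPM after withdrawal and 210.2, 261 and 227 CPM under continued treatment (log2 fold change 1.25 ± 0.22, adjusted p = 0.000208), and the methyltransferase Ezh2 rose by 0.66 ± 0.14. The chromatin counts were 6 and 0 without the withdrawn library S11_715 and 2 and 0 on log2(TPM + 1). Of 12 replication-dependent histone genes, 3 linker histones were lower, Hist1h1c (-0.77 ± 0.17), Hist1h1d (-2.15 ± 0.43) and Hist1h1e (-2.01 ± 0.38).

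Targets of p53 moved both ways, with 7 higher and 9 lower of 36 (19.4% and 25%, against 20.1% and 18.1% of all genes tested). Of the death effectors, Bax was at 178, 351 and 260.0 CPM after withdrawal and 77.4, 106 and 122 CPM under continued treatment (log2 fold change 1.37 ± 0.28, adjusted p = 0.000954), and Bbc3, which encodes PUMA, at 14.4, 17.9 and 19.9 CPM after withdrawal and 6.96, 9.95 and 9.69 CPM under continued treatment (log2 fold change 0.97 ± 0.17, adjusted p = 0.000298). Of the arrest and repair genes, Gadd45a was at 141, 36.6 and 79 CPM after withdrawal and 230.3, 242 and 288 CPM under continued treatment (log2 fold change -1.57 ± 0.35, adjusted p = 0.00176), the ribonucleotide reductase subunit Rrm2b at 7.18, 4.80 and 5.98 CPM after withdrawal and 19.3, 15 and 13.4 CPM under continued treatment (log2 fold change -1.41 ± 0.20, adjusted p = 2.44e-05), and Ccng1, cyclin G1, at 201, 165 and 234 CPM after withdrawal and 306, 326 and 275 CPM under continued treatment (log2 fold change -0.60 ± 0.13, adjusted p = 0.00136). The damage sensors Xpc (-0.79 ± 0.14) and Ddb2 (-1.56 ± 0.39) were lower. Perp, a junction protein that is also a p53 effector of cell death, was lower too (-1.66 ± 0.28), so the death effectors moved both ways. Each of these genes had separate groups. Against time-matched DMSO, 13 members were higher and 5 lower in the withdrawn cells, and 11 higher and none lower in the continued ones. Of all genes tested, 24.7% were higher and 24% lower in the withdrawn cells, and 9.7% and 8.4% in the continued ones. The counts were 5 and 7 without the withdrawn library S11_715 and 3 and 11 on log2(TPM + 1).

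Of 35 genes of ATM signalling and the response to broken DNA, 3 were higher and 5 lower (8.57% and 14.3%, below the shares over all genes tested). Trp53bp1, the 53BP1 adaptor at break sites, was at 16.2, 14.5 and 14.9 CPM after withdrawal and 29.5, 28.3 and 26.2 CPM under continued treatment (log2 fold change -0.88 ± 0.21, adjusted p = 0.00346), and Nhej1, of the end-joining ligase complex, at 4.93, 6.98 and 5.70 CPM after withdrawal and 1.82, 2.45 and 2.81 CPM under continued treatment (log2 fold change 1.32 ± 0.22, adjusted p = 0.000137). These counts were 1 and 2 without the withdrawn library S11_715, and likewise 1 and 2 without the continued library S16_705.

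The secretory phenotype of senescent cells gave 16 lower and 8 higher of 46, with a median log2 fold change of -0.67. Among cytokines and growth factors, Ccl7 was at 45.9, 30.7 and 40.4 CPM after withdrawal and 149, 101 and 100.4 CPM under continued treatment (log2 fold change -1.58 ± 0.43, adjusted p = 0.00759), Hgf, hepatocyte growth factor, at 12.4, 2.46 and 5.70 CPM after withdrawal and 29.1, 15.3 and 21.4 CPM under continued treatment (log2 fold change -1.66 ± 0.43, adjusted p = 0.0054), and Il11 at 4.44, 2.42 and 3.13 CPM after withdrawal and 9.84, 8.84 and 9.17 CPM under continued treatment (log2 fold change -1.47 ± 0.33, adjusted p = 0.0022). The adhesion receptor Icam1 was lower (-1.02 ± 0.24). Serpinb2, an inhibitor of plasminogen activators, was lower too, at 7.05, 3.15 and 2.29 CPM in the continued libraries against 0.131, 0 and 0 CPM in the withdrawn ones, where it had 4 counts in all (adjusted p = 3.84e-05). Mmp3, stromelysin, was at 2219, 767 and 790.1 CPM in the withdrawn and 6696, 2609.9 and 3588 CPM in the continued libraries (log2 fold change -1.77 ± 0.51, adjusted p = 0.00978), and its call was lost without the withdrawn library S11_715 (adjusted p = 0.0587) or the continued library S16_705 (0.0726). The continued library S16_705 was the highest for Mmp3, Il6 and Hgf, and the withdrawn library S10_705 the highest of its group.

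The rises in that list were mostly binding proteins and proteases. Igfbp5, which binds insulin-like growth factors, was at 1265, 1570.1 and 1792 CPM after withdrawal and 99.4, 128 and 175 CPM under continued treatment (log2 fold change 3.52 ± 0.31, adjusted p = 1.65e-07), and Igfbp6 at 444, 396 and 504 CPM after withdrawal and 189, 209.9 and 219 CPM under continued treatment (log2 fold change 1.12 ± 0.20, adjusted p = 0.000246). In DMSO Igfbp5 was at 458, 484 and 442 and 270.4, 444 and 519 CPM. The gelatinase Mmp2 (1.32 ± 0.29), its activator Mmp14 (1.32 ± 0.15) and Igfbp2 (2.32 ± 0.54) rose as well. The other 3 rises, Plau, Ereg and Timp2, lost their calls when single libraries were left out. The list counts were 9 lower and 8 higher without the withdrawn library S11_715, 10 lower and 7 higher without the continued library S16_705 and 23 lower and 6 higher without the withdrawn library S10_705. On log2(TPM + 1) they were 21 lower and 5 higher.

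Interferon response genes form the antiviral programme that cytosolic DNA or interferon switches on. Of 54 tested, 14 were higher and 2 lower (25.9% and 3.7%, against 20.1% and 18.1% of all genes tested). The list summed to 4943 to 6261 CPM after withdrawal and 4436 to 4809 CPM under continued treatment. At 15 d of KU60019 it summed to 6006 to 9013 CPM. The ubiquitin-like Isg15 was at 175, 244 and 248 CPM after withdrawal and 37.3, 73.5 and 53.6 CPM under continued treatment (log2 fold change 2.02 ± 0.46, adjusted p = 0.00212). Ifi27l2a was at 141, 288 and 242 CPM after withdrawal and 34.2, 39.7 and 38.1 CPM under continued treatment (log2 fold change 2.58 ± 0.60, adjusted p = 0.00255). The groups did not overlap, and the withdrawn library S10_705 was the lowest of its group for both. Ifi35 (1.60 ± 0.34), the dynamin-like GTPase Mx2 (1.60 ± 0.39) and the interferon regulatory factor Irf9 (0.83 ± 0.18, with exon bases shared with Rnf31), also rose. The 2 falls were the class I genes H2-K1, at 319, 339 and 248 CPM in the withdrawn libraries against 548, 488 and 553 CPM in the continued ones (log2 fold change -0.81 ± 0.23, adjusted p = 0.00836), and H2-D1, whose call was lost without the withdrawn library S11_715 (adjusted p = 0.0708), and class I genes have near-identical copies. Against time-matched DMSO, 43 members were higher in the withdrawn cells and 24 in the continued ones, with 1 lower in each. Over all genes tested, 24.7% were higher and 24% lower in the withdrawn cells, and 9.7% and 8.4% in the continued ones. In DMSO Isg15 was at 54.8, 19.2 and 23.9 CPM after removal and 55.8, 16.8 and 20.2 CPM at 35 d. The counts were 9 and 1 without the withdrawn library S11_715, 23 and 2 without the withdrawn library S10_705, 7 and 2 without the continued library S16_705 and 7 and 2 on log2(TPM + 1).

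**Figure D5:**
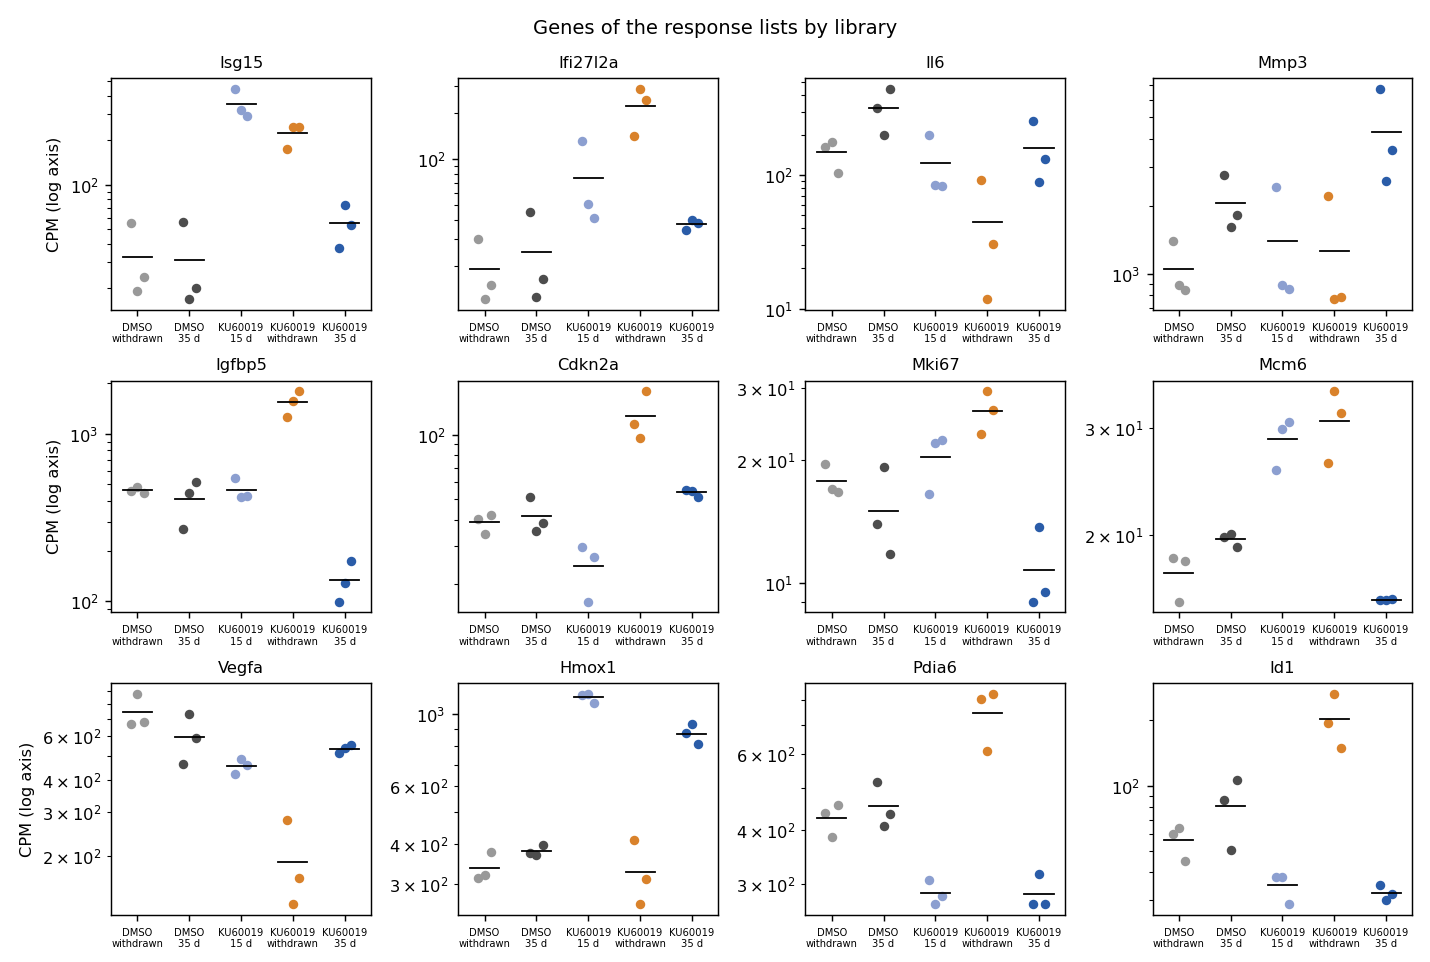
CPM (log axes) of 12 genes of the interferon, secretory, cell cycle, hypoxia, oxidant, ER and BMP groups in each library of 5 groups, with bars at group means. Isg15, Ifi27l2a, Igfbp5, Cdkn2a, Mki67, Mcm6, Pdia6 and Id1 are higher, and Il6, Mmp3, Vegfa and Hmox1 lower, after withdrawal than under continued KU60019.

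Immediate early genes, which answer serum within minutes, passed the test in 3 of 22, against 38.2% of all genes tested. Ier3 was lower at 105, 115 and 147 CPM in the withdrawn libraries against 203, 193 and 261 CPM in the continued ones (log2 fold change -0.84 ± 0.18, adjusted p = 0.00132). The 2 rises, Ier2 and Jund, lost their calls without the withdrawn library S11_715 (adjusted p = 0.101 and 0.217), and that of Ier2 was also lost with the replicate block (0.051). Of 6 tested targets of the aryl hydrocarbon receptor 2 were lower and none higher, and both calls were lost when single libraries were left out.

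Markers of cell types other than fibroblasts were read in the same libraries. Their called shares stand against 20.1% higher and 18.1% lower over all genes tested. Macrophage markers summed to 28.2 to 54.2 CPM after withdrawal and 73.0 to 102 CPM under continued treatment, with Ptprc, Adgre1, C1qa, C1qb, Marco and Itgam at 0 in the withdrawn libraries and Marco in the continued ones. Of 11 tested, 1 was higher (9.09%, none without the withdrawn library S11_715) and 2 lower (18.2%), Lyz2 at 15.8, 7.06 and 8.12 CPM in the withdrawn libraries against 59.3, 38.4 and 52.4 CPM in the continued ones and Cd68 at 4.34, 3.12 and 4.72 CPM in the withdrawn libraries against 14.9, 13.7 and 12.5 CPM in the continued ones. Their part in the falls of lysosome and secretory genes was not tested. Epithelial markers summed to 2.96 to 6.46 and 4.55 to 7.42 CPM, with Krt14 and Nkx2-1 at 0 after withdrawal and no call among 5 tested. Endothelial markers summed to 30.5 to 50.3 and 25.1 to 28.3 CPM, with 3 higher and 2 lower of 16 (18.8% and 12.5%). Without the withdrawn library S11_715 these counts were 2 and 2. Mesothelial markers summed to 107 to 191 and 105 to 120 CPM, with 2 higher and 1 lower of 8 (25% and 12.5%).

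Pericyte markers, which overlap with contractile mural cells, summed to 489 to 706 CPM after withdrawal and 434 to 465 CPM under continued treatment. Of 8 tested, 3 were higher and 4 lower (37.5% and 50%, against 20.1% and 18.1% of all genes tested). Without the withdrawn library S11_715 these counts were 2 and 4. Cspg4, the NG2 proteoglycan, was at 8.68, 48.6 and 20.7 CPM in the withdrawn libraries against 3.36, 5.85 and 4.35 CPM in the continued ones (log2 fold change 2.52 ± 0.57, adjusted p = 0.00206), while the potassium channel genes Kcnj8 (-2.19 ± 0.40) and Abcc9 (-3.12 ± 0.53) and the signalling regulator Rgs5 (-2.75 ± 0.52) were lower. Their part in the contractile result was not tested. Chondrocyte markers reached 123 CPM in the withdrawn library S11_715, against 10.7 and 21.1 CPM in the other withdrawn libraries and 11.9 to 13 CPM in the continued ones. Sox9, the cartilage factor, was at 5.81, 29.3 and 8.22 CPM in the withdrawn libraries against 2.75, 2.70 and 2.39 CPM in the continued ones (log2 fold change 2.46 ± 0.42, adjusted p = 0.000179). Schwann cell markers ranged from 60.0 to 156 CPM and 69.5 to 167 CPM, with 2 higher and 3 lower of 11 (18.2% and 27.3%). No Schwann marker passed the test without the withdrawn library S11_715 or with only the compared groups, and 3 were higher and 7 lower with the replicate block. Adipocyte markers ranged from 379 to 887 and 324 to 557 CPM, with 1 of 6 higher (16.7%) and, with the replicate block, 2 higher and 1 lower. Of the fibroblast identity genes themselves, 5 of 12 were higher and 1 lower (41.7% and 8.33%), and S100a4 was at 101, 368 and 204 CPM after withdrawal and 17.1, 26.9 and 20.3 CPM under continued treatment (log2 fold change 3.39 ± 0.47, adjusted p = 2.03e-05). In bulk RNA, fewer cells of a type and less RNA per cell cannot be told apart.

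Relative to the start of withdrawal, the continued group lay nearer than the withdrawn group to the cells at 15 d of KU60019 for 64.0% of the called genes and 60.1% of all genes tested. The withdrawn group lay nearer to its own DMSO group than the continued group did to its own for 30.7% of called and 33.6% of tested genes. Among called genes the median absolute log2 difference from DMSO was 0.72 for the withdrawn and 0.34 for the continued group. These values use group means that include S11_715. Over all genes tested, S11_715 lay 0.613 to 0.65 from the DMSO withdrawn libraries and 0.58 to 0.604 from those at 15 d of KU60019. S10_705 lay 0.356 to 0.382 and 0.329 to 0.351 from them. The continued libraries lay 0.239 to 0.399 from DMSO at 35 d and 0.272 to 0.352 from 15 d of KU60019. Against its time-matched DMSO group the withdrawn group had 9096 calls (48.7%) and the continued group 3381 (18.1%). These contrasts use the same KU60019 libraries as the main one and are given as a description. Leaving out 1 KU60019 library at a time, an alternative chosen after the data were seen, gave 6763 (without S11_715) to 9889 (without S10_705) calls for the withdrawn group. For the continued group it gave 2221 without S18_716, 2267 without S17_715 and 2767 without S16_705.

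Few genes were called for the DMSO schedule itself, and most of these were called with KU60019 as well. A gene without a DMSO call is not shown to be unchanged, and the DMSO groups did not overlap at 22.1% of genes. Of the 30 DMSO calls, 23 were also called in the KU60019 contrast, 22 of them in the same direction. These 23 are 76.7% of the DMSO calls and 0.322% of the KU60019 calls. The KU60019 contrast called 38.2% of all genes tested. Ramp1, a calcitonin receptor partner, rose by 2.22 ± 0.41 after DMSO removal and by 2.35 ± 0.43 after KU60019 withdrawal. Cdh3, P-cadherin, rose by 1.75 ± 0.29 and 2.46 ± 0.32, Sncg by 1.99 ± 0.38 and 1.73 ± 0.36, Fbxl22, which shares exon bases with Herc1, by 1.59 ± 0.28 and 2.22 ± 0.30, and Cd109 by 1.59 ± 0.28 and 0.80 ± 0.28. The 3 falls were in the receptor Il17ra (-0.75 ± 0.15, and -0.48 ± 0.15 with KU60019), the peptidase Mme (-1.53 ± 0.27) and the chemokine Cxcl5 (-2.45 ± 0.46). Mme was at 12.9, 19.8 and 14.5 CPM after KU60019 withdrawal and 16.6, 13.7 and 13.3 CPM under continued treatment, and its contrasts differed by 1.64 ± 0.38 (adjusted p = 0.00675). With the replicate block the KU60019 fall of Cxcl5 passed the test (-1.04, adjusted p = 0.0269). Without the block its log2 fold change was -0.94 ± 0.44 (adjusted p = 0.0966), and the difference did not pass the test (adjusted p = 0.0942). No DMSO call remained without the DMSO 35 d library S14_715, where edgeR gave 1107 genes at an unadjusted p under 0.05.

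In the difference of the 2 contrasts 1485 genes (7.95%) were higher and 1492 (7.99%) lower for KU60019. Cxcl14 was at 233, 511 and 271 CPM after DMSO removal and 311, 533 and 389.8 CPM at 35 d of DMSO, so its difference between the contrasts was -4.46 ± 0.70 (adjusted p = 0.000323). Ptn was at 10.8, 10.1 and 17.3 and 7.79, 5.72 and 6.83 CPM in the DMSO groups (difference 5.99 ± 0.71, adjusted p = 3.85e-05). Ache, acetylcholinesterase, was at 3.10, 0.944 and 1.12 CPM after withdrawal and 15, 17.4 and 17.2 CPM under continued treatment, and at 8.57, 10.1 and 11.6 and 4.62, 5.62 and 4.90 CPM in DMSO (difference -4.23 ± 0.40, adjusted p = 8.29e-06). The KU60019 groups were separate for these 3 genes, which the earlier naming of Cxcl14 and Ptn had required. The DMSO groups lay closer to each other than the KU60019 groups did. Leaving out 1 library at a time gave 1583 (without DMSO 35 d S13_705) to 4970 (without KU60019 withdrawn S10_705) calls for the difference.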

How the data were processed

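Libraries were made with TruSeq kits (labels' protocols). The authors deposited a table of raw read counts per gene, for which the submitters' processing notes name featureCounts and mm10, and a table of TPM values per gene of those libraries. Aligner, annotation release and strand setting: not given in the sources used here. Overlapping, antisense and near-identical genes are therefore uncertain. GENCODE M21 (GRCm38) held 40606 (83.8%) of the 48440 versioned gene IDs and gave positions, lengths and exon overlaps. Promoters came from RefSeq (GRCm38.p6).

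The test was the quasi-likelihood F-test of edgeR 4.0.16 (R 4.3.3), with TMM, filterByExpr at a minimum count of 10, a group-means model of all 27 libraries and Benjamini-Hochberg adjustment over 18684 genes, called at 0.05. SEs, the log2 fold change over the square root of F, are approximate. In a simulation of the main comparison over 18684 genes, 67 genes were changed by 1.5-fold, 67 by 2-fold and 66 by 4-fold. edgeR called 17.9%, 55.2% and 80.3% of them, and 5 genes without a change. The real comparison called 38.2% of genes and held a library that stood apart, which the simulation did not copy. These rates therefore need not hold for the real comparison. The common biological coefficient of variation was 22.3%. CPM use TMM-scaled totals.

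Members and gene lists were chosen with earlier results of these data known. Named genes are a panel of 7, the 15 and 15 largest called changes (8 and 8 in the difference, 5 and 5 in DMSO) at 5 CPM or more in the higher group and, except in the difference, with separate groups, and in each list the 6 lowest p or members whose role is described. Names of predicted genes and pseudogenes were left out, and some genes that this rule selects are not reported here. Alternatives were RLE, library size alone, no filter, DESeq2 1.42.0, limma 3.58.1 on log2(TPM + 1) and log2(TPM + 0.1), only the compared groups, the replicate number as a block, removal of the length trend, protein-coding genes alone, and each library left out. KU60019 libraries with the same end number deviated together (r = 0.357, 0.117 and 0.232), and DMSO pairs gave 0.0747, 0.243 and 0.207. Pairs with unlike numbers gave -0.257 to 0.0738 in KU60019 and -0.199 to 0.00283 in DMSO. The main test and its SEs do not use this pairing, which enters only in the replicate block. Replicates all differed by more than sampling noise, the closest pair by a chi-square of 12.8 per gene.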

Additional observations from a re-analysis of the deposited data

Results flagged for a closer look

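The KU60019 contrast differed from the DMSO contrast, by the test of the difference itself, at 3 genes of the panel and at 16 genes named for the size of that difference. Values are the log2 change with KU60019 minus that with DMSO. In the panel Cdkn2a differed by 1.29 ± 0.44 (adjusted p = 0.0498), Mki67 by 1.05 ± 0.33 (adjusted p = 0.0377) and Lmnb1 by 0.96 ± 0.25 (adjusted p = 0.0135). Leaving out 1 of the 12 libraries kept the call of Lmnb1 each time, but lost that of Mki67 in 9 and of Cdkn2a in 11 cases, and all 3 calls were lost with library size alone and on both TPM scales.

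Genes further up with KU60019 were Ear2 (9.76), Ptn (5.99 ± 0.71), Tril (5.49 ± 1.32), Clec3b (5.20 ± 0.75), Adra2a (4.72 ± 1.28), Chodl (4.34 ± 0.78), Dpt (4.29 ± 0.57) and Ldb2 (4.27 ± 1.34). The value of Ear2 is a fitted one against counts near 0 and is no bound. Chodl, a lectin-like membrane protein, was at 6.89, 22.9 and 14.1 CPM after withdrawal and 1.08, 2.12 and 1.03 CPM under continued treatment, and at 0.346, 0.241 and 0.147 CPM after DMSO removal and 0.261, 0.566 and 0.572 CPM at 35 d of DMSO. Tril, Adra2a and Ldb2 were highest in the withdrawn library S11_715, and without it their differences were 2.56 (adjusted p = 0.0763), 2.41 (0.117) and 2.65 (0.142), no longer called.

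Genes further down with KU60019 were Stmn2 (-4.48 ± 1.24), Cxcl14 (-4.46 ± 0.70), Crabp2 (-4.29 ± 0.53), Ache (-4.23 ± 0.40), Tmem59l (-4.20 ± 0.42), Slfn5 (-4.10 ± 1.23), Ighm (-3.58 ± 0.57) and Esm1 (-3.57 ± 0.70). Stmn2, a tubulin-binding protein of nerve cells, was at 0.914, 4.14 and 2.57 CPM after withdrawal and 7.39, 16.6 and 14.9 CPM under continued treatment, and at 0.0315, 0.214 and 0.344 CPM after DMSO removal and 0.0373, 0 and 0.0763 CPM at 35 d of DMSO. Esm1, endocan, was at 5.45, 1.60 and 2.10 CPM after withdrawal and 20.4, 14 and 10.2 CPM under continued treatment, and at 0.504, 0.295 and 0.491 and 0.112, 0.251 and 0.152 CPM in the DMSO groups. Without the withdrawn library S11_715 Slfn5 was at -3.60 (adjusted p = 0.0806), and without DMSO withdrawn S9_716 Stmn2 was at -3.82 (adjusted p = 0.0928). The call of Slfn5 was also lost without KU60019 withdrawn S12_716, KU60019 continued S16_705, DMSO withdrawn S7_705, or DMSO 35 d S13_705 or S15_716 (adjusted p from 0.0516 to 0.109). That of Adra2a was also lost without DMSO 35 d S15_716 (0.0836) or KU60019 continued S16_705 (0.0516), and that of Ldb2 without DMSO withdrawn S7_705 or S8_715, DMSO 35 d S13_705 or S15_716, or KU60019 continued S16_705 or S17_715 (0.0604 to 0.155). Adjusted p-values of these 16 genes ran from 8.29e-06 (Ache) to 0.0349 (Ldb2).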

How the results depend on the processing

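The count of 7133 calls between withdrawn and continued KU60019 came to 4222 with only the compared groups and ranged from 4362 (without withdrawn S11_715) to 8193 (without withdrawn S10_705) when 1 library was left out, with 4464 without continued S16_705. It was 7766 with DESeq2, 7165 with RLE, 7443 with the length trend removed, 6636 with library size alone, 5658 with no filter, 5868 for protein-coding genes alone and 4914 and 4954 on log2(TPM + 1) and log2(TPM + 0.1). With the replicate block it was 7039, and among named genes Ccnd1 (adjusted p = 0.0517), Ier2 (0.051), Vcl (0.0514) and Ereg (0.0528) were lost, while Cxcl5 (0.0269), Fabp4 (0.00643), Gap43 (0.0185), Lpl (0.00696) and Tie1 (0.0208) were gained. It changed no other call of a gene that the report names between withdrawn and continued KU60019. In the difference from DMSO it lost Cdkn2a (0.0544). The 30 DMSO calls became 166 with DESeq2, 47 with the length trend removed, 10 on log2(TPM + 0.1), 252 with only the compared groups and 51 with the replicate block, and 0 (without DMSO 35 d S14_715) to 24 with 1 library left out. The count of 24 was that without S7_705, and each of the other 4 libraries gave 5 to 11. The 2977 calls of the difference became 1632 and 1656 on the TPM scales, 1825 with no filter, 2802 with the replicate block, and 1583 to 4970 with 1 library left out, of which 1646 without continued KU60019 S16_705, 1983 without S17_715, 1782 without withdrawn KU60019 S11_715, and 1864 and 1699 without DMSO withdrawn S7_705 and S8_715. Against time-matched DMSO the leave-one-out counts were 2221 to 2767 for continued and 6763 to 9889 for withdrawn KU60019. The direction reversed for Comp, a cartilage matrix gene, at -0.26 (adjusted p = 0.695) without withdrawn S11_715, against 2.01, with 2.53 without withdrawn S10_705 at the other end. Otherwise the causes of these shifts were not tested. At this depth a gene with 3 counts in a group, such as Ear2, gives a ratio with a wide interval only.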

Other observations

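Some called genes lay next to each other on the chromosome. These runs of neighbours of at least 1 CPM, all called in the same direction, were picked after their values were seen and carry no test. On chromosome 1 (75307896 to 75506452, GRCm38) Dnpep, Des, Speg, Gmppa, Chpf, Obsl1 and Tmem198 were higher after withdrawal, with a median log2 fold change of 1.14. Des, Speg and Obsl1 are genes of muscle filaments and their partners. On chromosome 17 (35379617 to 35474563) 6 genes from H2-Q4 to H2-Q10, which encode class I molecules, were lower (median -1.87), and they are near-identical copies whose reads can be shared. On chromosome 14 (69241848 to 69695834) 8 genes from Slc25a37, a mitochondrial iron carrier, to Loxl2 were lower (median -1.55). On chromosome 13 (23553262 to 23622558) 5 genes from Hist1h1d to Hist1h1e were lower (median -0.92).

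By gene type, 43.9% of the 114 unprocessed pseudogenes tested were lower after withdrawal, against 18.1% of all genes tested. In the quintile of genes with the highest expression 33.3% were higher and 12.8% lower. Processed pseudogenes took 9.21 to 10.6% of the counts after withdrawal and 7.07 to 8.19% under continued treatment.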
